A study of Mus musculus with 9 samples.

Results

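Mural cells are the contractile and supporting cells that wrap blood vessels, and 10 genes that mark them were followed here in B16 melanoma tissue: Acta2, Tagln, Myh11, Cnn1, Rgs5, Cspg4, Des, Mcam, Notch3 and Myl9. They were chosen by name, through the symbol that the platform annotation gives a probe, and each probe whose detection p was under 0.05 on 4 or more of the 9 arrays was used. That gave 8 of the 10 genes, with 13 of the 20190 detected probes, out of 10096 genes named on the arrays. Cnn1 (calponin 1) and Rgs5 (a regulator of G protein signalling that marks pericytes) are unnamed among the annotated probes and were not analysed here. Acta2 had 4 probes, Mcam had 3, and the other 6 genes had 1 each. All 13 were above background on every array except that of Tagln, which was detected on 4 of 4 PC61 arrays and on 3 of 5 PBS arrays.

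The treated tumours were labelled PC61, 4 arrays, and came from mice given the PC61 antibody against CD25, which the series describes as depleted of regulatory T cells. The controls were labelled PBS, 5 arrays, from mice given PBS in its place. Both groups were C57/Bl6 mice 8 weeks old carrying B16, a transplantable melanoma line of that strain, and both were taken at day 14 after inoculation. The sample is described as tumour environment, so it may hold tissue around the tumour as well as melanoma cells. The labels do not say when or how often the antibody was given, nor that each array is a separate mouse, so the p-values cover the spread of these arrays, which may be technical.

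Smooth muscle cells surround arteries and veins and contract through smooth muscle actin and myosin, while pericytes sit on capillaries and hold the endothelium stable. Endothelial PDGF-B recruits both through the receptor PDGFRB, and Notch ligands on the endothelium act on NOTCH3 in mural cells to keep them differentiated. The contractile genes are switched on by serum response factor with myocardin at CArG boxes in their promoters. In tumours the mural coat is often thin or loosely attached. Several of the genes are shared with other cells of this tissue: Des is also the desmin of skeletal muscle, Mcam and Cspg4 are also melanoma surface proteins, and Acta2, Tagln and Myl9 are also made by myofibroblasts.

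Promoter windows of 250 bases before and 50 bases after the gene start were available from RefSeq on GRCm38.p6 for 8 of the 10 genes, the exceptions being Tagln and Myh11. The CArG box (CC, then 6 bases that are each A or T, then GG, a pattern that reads the same on both strands) was present in 1 of these 8 windows, that of Myl9, and in 1.63% of all 32851 windows. A looser form with 1 G or C among the 6 middle bases, chosen after the windows had been seen, was present in 2 of the 8 windows, Acta2 and Myl9, and in 8.50% of all windows. The windows of Acta2 (chr19:34255324-34255623, minus strand) and Myl9 (chr2:156775214-156775513, plus strand) are shown because they are the 2 that hold either form, with those matches in capitals, 5′ to 3′.
Acta2: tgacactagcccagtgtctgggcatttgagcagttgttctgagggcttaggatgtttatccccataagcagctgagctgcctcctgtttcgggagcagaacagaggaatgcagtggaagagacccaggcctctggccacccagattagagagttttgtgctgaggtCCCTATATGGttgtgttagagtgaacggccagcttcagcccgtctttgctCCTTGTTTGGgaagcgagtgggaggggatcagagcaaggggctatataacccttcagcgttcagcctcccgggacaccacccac
Myl9: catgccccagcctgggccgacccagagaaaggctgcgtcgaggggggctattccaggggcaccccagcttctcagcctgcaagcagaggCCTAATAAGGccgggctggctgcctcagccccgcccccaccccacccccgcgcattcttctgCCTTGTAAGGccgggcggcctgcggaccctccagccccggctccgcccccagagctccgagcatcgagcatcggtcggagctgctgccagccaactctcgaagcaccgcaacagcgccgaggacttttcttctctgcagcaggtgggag
In Myl9 the CArG box began 161 bases before the start and the looser match 99 bases before it. In Acta2 the looser matches began 84 and 34 bases before the start. TGGGAA, the core letters of the RBPJ site through which Notch acts, was searched on both strands and was found in 1 of the 8 windows, that of Acta2, where it began 27 bases before the start and overlapped the nearer looser match. It was present in 25.6% of all windows. A match describes the letters of the window and is not a shown binding site.

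Of the 8 measured genes, 5 were higher in PC61 tumours, 0 were lower and 3 did not pass the test. The 5 were Myl9, Notch3, Des, Myh11 and Tagln, with folds between 1.81 and 2.96. The test was limma across all 20190 detected probes, two-sided, with an adjusted p under 0.05 as the threshold. By that test 10.7% of all probes were higher in PC61 and 9.28% were lower, so the share of the 8 genes that were higher was above that of all probes. Of the called probes, 53.6% were higher. That share was 64.2% with cyclic loess in place of quantile normalization, 49.5% with 75th percentile scaling, 48.0% with array weights and 47.0% with a detection p under 0.01 on all 9 arrays. At an unadjusted p under 0.05 the counts were the same, 5 higher and 0 lower, with each gene counted by its brightest probe. For Acta2 that probe had an unadjusted p of 0.0510 in limma. The other 3 Acta2 probes, also higher in PC61, had unadjusted p of 0.0199, 0.0162 and 0.0352. By p-value the 4 probes ranked 7280, 5262, 4865 and 6415 of 20190. Between 6415 and 7280 of all probes, higher or lower, thus had an unadjusted p under 0.05. Leaving out PC61 replicate 3 left 2 genes higher, Myl9 and Notch3, and leaving out PBS replicate 4 left 3. Calls over all 20190 probes fell as well. With all arrays 2167 probes were higher, beside 617 without PC61 replicate 3 and 1259 without PBS replicate 4. Myl9 and Notch3 passed when any 1 array was left out, with adjusted p of at most 0.0433 and 0.0478. The median difference of the 8 genes was 1.11 on the log2 scale, beside -0.07 over all probes and -0.05 over all named genes. In 3 genes, Myl9, Notch3 and Tagln, each PC61 array was above each PBS array, a pattern shown by 8.49% of all probes. These are tissue samples, so a change in the number of mural cells and a change in RNA per cell cannot be told apart.

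**Figure D1:**
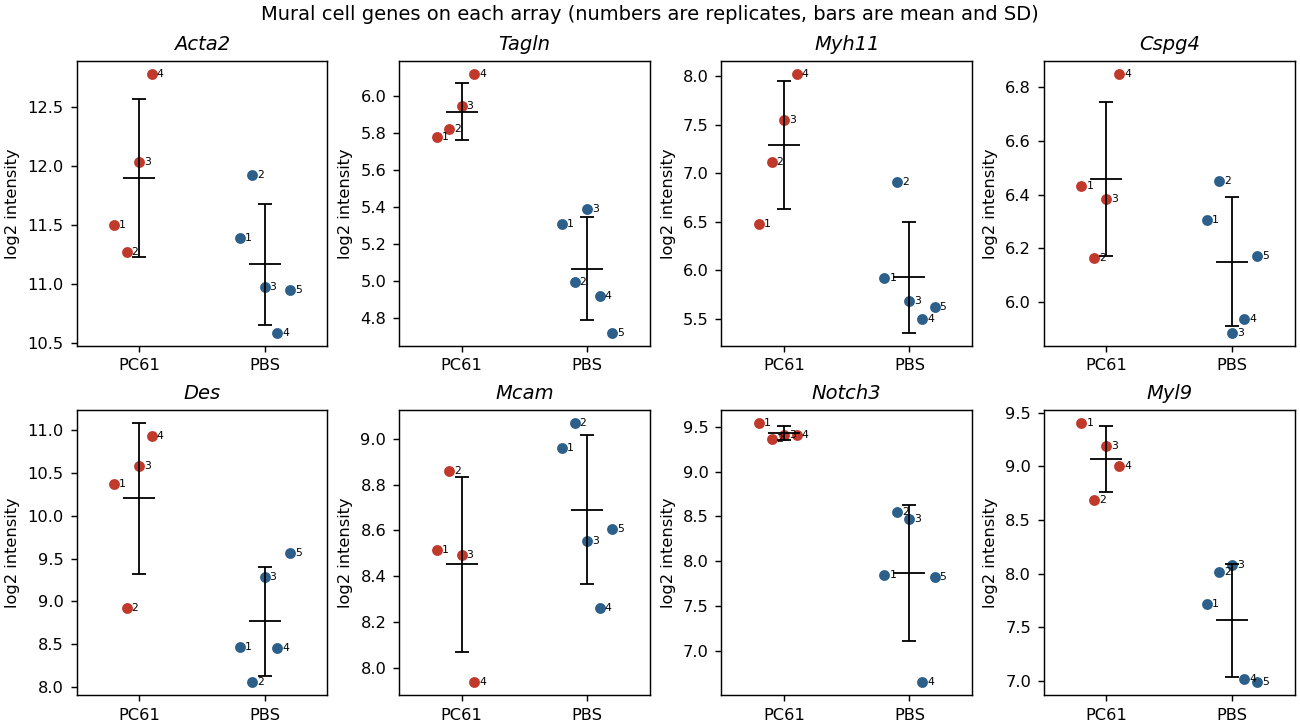
Log2 intensity of the highest-mean probe of each of the 8 genes (vertical axes, 1 scale per gene) on each array, PC61 in red and PBS in blue, with bars for the mean and SD of each group. The groups stood apart for Tagln, Notch3 and Myl9 and overlapped for the other 5 genes.

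Of the genes of the contractile apparatus, Myl9 encodes the regulatory light chain of smooth muscle and non-muscle myosin. Its log2 intensity was 9.41, 8.69, 9.19 and 9.0 on PC61 arrays 1 to 4 and 7.71, 8.01, 8.08, 7.02 and 6.99 on PBS arrays 1 to 5. The lowest PC61 array was 0.60 above the highest PBS array. The means were 9.07 ± 0.30 in PC61 and 7.56 ± 0.53 in PBS (SD), a log2 difference of 1.51 ± 0.27 (SE), or 2.84-fold, with an adjusted p of 0.0128 in limma. By p-value this probe ranked 219 of 20190.

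Myh11 encodes the smooth muscle myosin heavy chain, the member with the narrowest known cell type range, since it is made by differentiated smooth muscle and some pericytes. Its log2 intensity was 6.48, 7.11, 7.55 and 8.03 on PC61 arrays 1 to 4 and 5.92, 6.91, 5.68, 5.49 and 5.62 on PBS arrays 1 to 5. PBS replicate 2 stood between the PC61 arrays, and the other 4 PBS arrays were all below the lowest PC61 array. The difference was 1.37 ± 0.35 on the log2 scale (SE), 2.58-fold, with an adjusted p of 0.0226 in limma. The call was lost when PC61 replicate 3 (adjusted p 0.0691), PBS replicate 4 (0.0536) or PBS replicate 5 (0.0568) was left out. With arrays weighted by their quality it was 0.0582, for a smaller difference of 0.81.

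Tagln encodes transgelin, an actin-binding protein of smooth muscle. It was the dimmest of the 8 genes, at 5.78, 5.82, 5.94 and 6.12 on PC61 arrays 1 to 4 and 5.31, 4.99, 5.39, 4.92 and 4.72 on PBS arrays 1 to 5 on the log2 scale. All PC61 arrays were higher than all PBS arrays, by at least 0.39. The difference was 0.85 ± 0.19 (SE), 1.81-fold, with an adjusted p of 0.0158 in limma, and of 0.0509 without PC61 replicate 3. Tagln was below detection on 2 PBS arrays, and the offset added to all probes shrinks the fold of a dim one, so its size depends on that setting. With an offset of 50 in place of 16 the difference was 0.48, with an adjusted p of 0.0225.

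Acta2, smooth muscle alpha actin, was bright and did not pass the test with any of its 4 probes. The brightest probe read 11.50, 11.27, 12.03 and 12.78 on PC61 arrays 1 to 4 and 11.39, 11.92, 10.98, 10.59 and 10.96 on PBS arrays 1 to 5. The groups overlapped, with PBS replicate 2 above PC61 replicates 1 and 2. The difference was 0.73 ± 0.34 (SE) with a 95% confidence interval of -0.0036 to 1.46 and an adjusted p of 0.141 in limma. The other 3 probes gave log2 differences of 0.80, 1.10 and 0.80, with adjusted p of 0.0763, 0.0671 and 0.111 in limma. All 4 probes put PC61 replicate 4 highest among the PC61 arrays and PC61 replicate 2 lowest. Without PC61 replicate 2, the 3 dimmer probes passed, with adjusted p of 0.0301, 0.0244 and 0.0269. Probe 2, in order of brightness, also passed with cyclic loess (adjusted p 0.0499) and without PBS replicate 2 (0.0447), and probe 3 without PBS replicate 1 (0.0453). The brightest probe's difference was 0.43 without PC61 replicate 4 and 0.36 with array weights, where probes 2 and 3 gave 0.52 and 0.67.

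**Figure D2:**
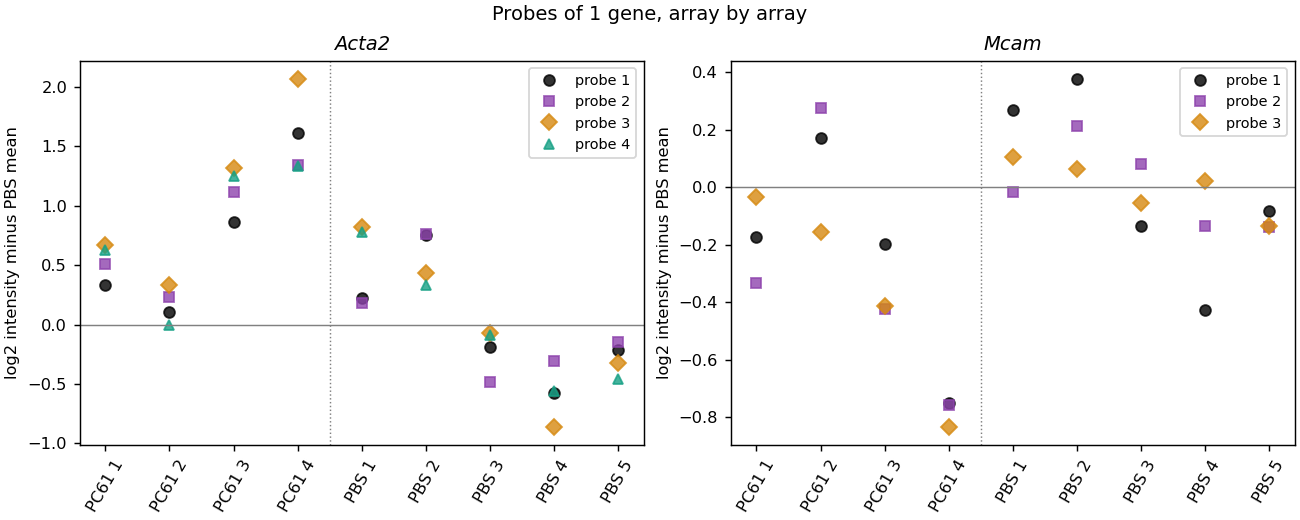
Log2 intensity minus the PBS mean of the same probe for the 4 probes of Acta2 and the 3 probes of Mcam (vertical axes), array by array (horizontal axis). For both genes the probes moved together on PC61 replicate 4, which was the highest PC61 array for Acta2 and the lowest for Mcam.

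Des encodes desmin, the intermediate filament of muscle cells of every kind, used as a pericyte marker in tumours. Its log2 intensity was 10.37, 8.93, 10.59 and 10.93 on PC61 arrays 1 to 4 and 8.46, 8.05, 9.28, 8.45 and 9.57 on PBS arrays 1 to 5. PC61 replicate 2 lay below PBS replicates 3 and 5, and the other 3 PC61 arrays were above all PBS arrays. The difference was 1.44 ± 0.41 (SE), 2.71-fold, with an adjusted p of 0.0332 in limma. This call was lost when any 1 of 6 arrays was left out: PC61 replicate 1, 3 or 4, or PBS replicate 1, 2 or 4, with adjusted p between 0.0642 and 0.0960. Markers of skeletal muscle, which also expresses Des, were higher in PC61 as well: their summed intensity ran from 47090 to 121662 in PC61 and from 13097 to 28262 in PBS. Without Des, 4 of 7 genes were higher, beside 10.7% of all probes. The part of skeletal muscle in the values of these genes was not tested.

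Notch3 encodes the Notch receptor that is largely specific to mural cells. Its log2 intensity was 9.54, 9.37, 9.41 and 9.41 on PC61 arrays 1 to 4 and 7.85, 8.55, 8.47, 6.65 and 7.83 on PBS arrays 1 to 5. The PC61 arrays lay close together, with an SD of 0.08, while the PBS arrays spread widely, with an SD of 0.76. The lowest PC61 array was 0.82 above the highest PBS array, the widest gap among the 8 genes. The difference was 1.56 ± 0.33 (SE), 2.96-fold, with an adjusted p of 0.0148 in limma. Without PBS replicate 4, the lowest array, it was 1.26 with an adjusted p of 0.0234.

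Both genes shared with melanoma failed the test. Cspg4 encodes the NG2 proteoglycan of pericytes. It read 6.43, 6.16, 6.38 and 6.85 on PC61 arrays 1 to 4 and 6.31, 6.45, 5.89, 5.94 and 6.17 on PBS arrays 1 to 5, and the groups overlapped. The difference was 0.31 ± 0.20 (SE), with a 95% confidence interval of -0.13 to 0.74 and an adjusted p of 0.293 in limma. It was 0.18 without PC61 replicate 4, the highest array for this gene.

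Mcam encodes the adhesion protein CD146 of endothelium, pericytes and melanoma. Its brightest probe read 8.52, 8.86, 8.49 and 7.94 on PC61 arrays 1 to 4 and 8.96, 9.07, 8.55, 8.26 and 8.61 on PBS arrays 1 to 5. It was the 1 gene of the 8 with a difference below 0, at -0.24 ± 0.23 (SE), a 95% confidence interval of -0.75 to 0.27 and an adjusted p of 0.498 in limma. The other 2 probes gave -0.31 and -0.36, with adjusted p of 0.327 and 0.205. PC61 replicate 4 was the lowest of the 4 PC61 arrays with all 3 probes, and without it the 3 differences were -0.07, -0.16 and -0.20. The first 2 probes gave -0.11 and -0.20 with cyclic loess, and probe 3 gave -0.14 with array weights. The brightest probe also moved to -0.14 without PBS replicate 2, and the first 2 to -0.37 and -0.50 without PC61 replicate 2.

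**Figure D3:**
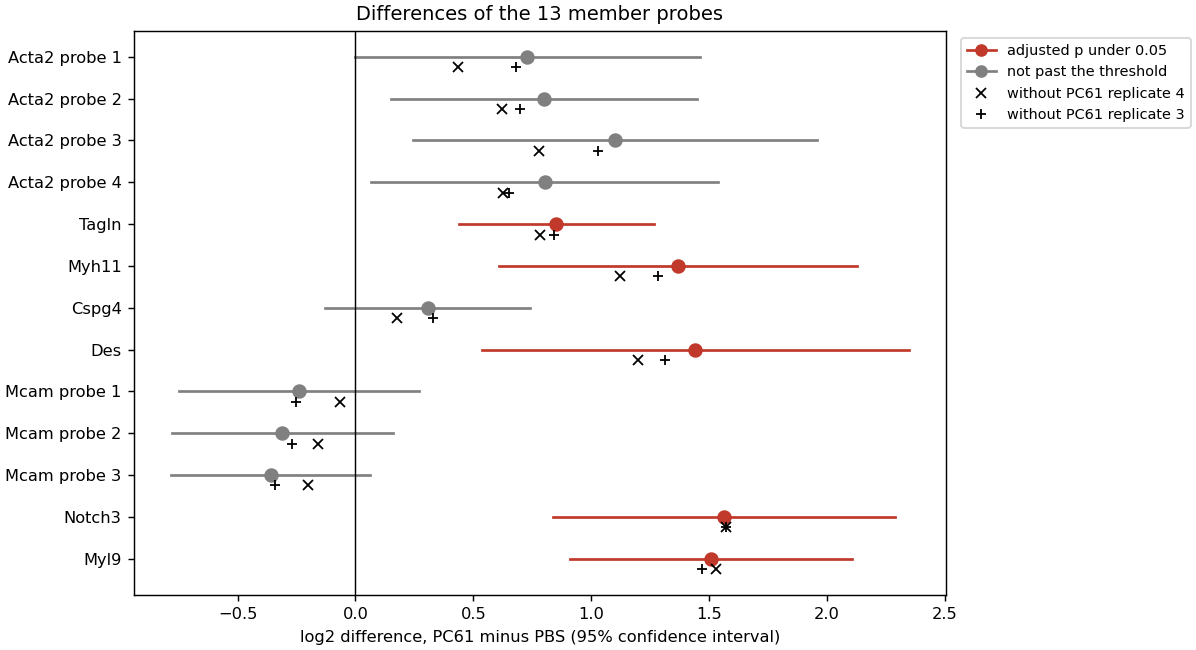
Log2 difference of PC61 minus PBS with its 95% confidence interval for each of the 13 probes (horizontal axis), in red where the adjusted p was under 0.05, with crosses and plus signs for the difference without PC61 replicate 4 and without PC61 replicate 3. Myl9 and Notch3 barely moved without either array, while Acta2, Myh11, Des and Cspg4 were smaller without PC61 replicate 4.

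The authors' deposited table gave ratios of PC61 to PBS of 2.70 for Myl9, 2.65 for Notch3, 2.80 for Des, 2.47 for Myh11 and 1.70 for Tagln, and its Benjamini-Hochberg values ran from 0.0139 to 0.0318 for these 5. The same authors' deposited table gave 1.71 for the brightest Acta2 probe, 1.22 for Cspg4 and 0.854 for the brightest Mcam probe, with Benjamini-Hochberg values of 0.131, 0.285 and 0.475.

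The arrays did not rank alike across the 8 genes. PC61 replicate 4 was the highest PC61 array for Acta2, Tagln, Myh11, Cspg4 and Des, and PC61 replicate 1 for Notch3 and Myl9. PC61 replicate 2 was the lowest PC61 array for 5 genes. Among controls, PBS replicate 2 was highest for 5 genes and PBS replicate 4 lowest for 4. The summed normalized intensity of the 8 genes was 6242, 4761, 7687 and 10856 on PC61 arrays 1 to 4 and 4158, 5558, 3800, 2563 and 3636 on PBS arrays 1 to 5, with PBS replicate 2 above PC61 replicate 2. Bright genes weigh most in such a sum, here Acta2. Averaged over the 8 genes, the log2 value minus the PBS mean was 0.85, 0.63, 1.05 and 1.23 on PC61 arrays 1 to 4. On PBS arrays 1 to 5 it was 0.09, 0.35, 0.14, -0.485 and -0.09, so the groups did not overlap on that measure.

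Other genes of mural cells were read from 3 lists. Called genes are named by rule, up to 10 a list, while genes that did not pass were picked by their known role after their values had been seen. In the pericyte list, 12 of 20 genes were measured, 5 were higher in PC61 and 0 were lower, with a median difference of 0.58. By the same test 10.7% of all probes were higher and 9.28% were lower. Anpep, the aminopeptidase CD13 of pericytes, fibroblasts and myeloid cells, was 4.07-fold higher, at 10.60 ± 0.36 in PC61 and 8.57 ± 0.68 in PBS (SD), a log2 difference of 2.02 ± 0.33 (SE) with an adjusted p of 0.0128 in limma. Pdgfrb, the PDGF receptor that defines mural cells and is also on fibroblasts, was 2.01-fold higher, at 7.96, 7.84, 7.72 and 7.12 on PC61 arrays 1 to 4 and 6.73, 6.33, 7.23, 6.20 and 6.79 on PBS arrays 1 to 5. Its groups overlapped on 1 pair, PC61 replicate 4 below PBS replicate 3, and its adjusted p was 0.0212 in limma. Cox4i2, a subunit of cytochrome oxidase that is abundant in pericytes, had a log2 difference of 1.11 (adjusted p 0.0128). Bgn, the matrix proteoglycan biglycan, differed by 1.04 (0.0144), and Cd248, endosialin of pericytes and fibroblasts, by 0.99 (adjusted p 0.0245). In PC61 replicate 4, where 5 of the 8 marker genes were highest, Pdgfrb and Cox4i2 were at their lowest for the group. Abcc9, Kcnj8 and Rgs4 of the same list were at their highest there. Averaged over the list, the log2 value minus the PBS mean was 0.72, 0.35, 0.75 and 0.80 on PC61 arrays 1 to 4. The 7 genes of the list that were not called ranged from -0.28 to 0.74. The Pdgfrb call was lost without PC61 replicate 1 (adjusted p 0.0550) or 3 (0.0620), and that of Cd248 without PC61 replicate 3 (0.0787) or PBS replicate 4 (0.0564) or 5 (0.0585). The genes that did not pass included Kcnj8 and Abcc9, the potassium channel subunits that mark capillary pericytes, with log2 differences of 0.29 and 0.41. Kcnj8 was near background, detected on 3 of 4 PC61 arrays and 2 of 5 PBS arrays, so its difference is poorly measured.

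In the contractile list, 19 of 28 genes were measured, 8 were higher in PC61 and 0 were lower, with a median difference of 0.56. The shares over all probes were 10.7% higher and 9.28% lower. Smtn, smoothelin of contractile smooth muscle, read 11.94, 11.44, 11.61 and 11.92 on PC61 arrays 1 to 4 and 10.34, 9.86, 11.05, 9.67 and 10.13 on PBS arrays 1 to 5. The groups did not overlap, and the difference was 1.52 ± 0.27 (SE) with an adjusted p of 0.0128 in limma. Actg2, enteric smooth muscle gamma actin, differed by 1.44 (adjusted p 0.0176), and Mrvi1, a partner of the nitric oxide pathway in smooth muscle, by 0.82 (adjusted p 0.0141). Cald1, caldesmon, differed by 0.84 (0.0245). Actg2 is close in sequence to the other actins, skeletal Acta1 among them, and the probe sequences were not used here. The other 4 called genes, Tpm2 (beta tropomyosin, 2.16), Fhl1 (a LIM protein, 1.82), Synm (synemin, 1.19) and Pdlim7 (a LIM protein of actin filaments, 0.84), are also known from skeletal muscle, and the values in brackets are their log2 differences. Smtn, Tpm2 and Mrvi1 passed when any 1 array was left out. The calls of Actg2 and Synm were lost without PC61 replicate 3 (adjusted p 0.0577 and 0.0565). That of Cald1 was lost without PC61 replicate 3 or PBS replicate 2, 4 or 5 (0.0526 to 0.0756), with 75th percentile scaling (0.0553) and with array weights (0.0829), where its difference was 0.50. Pdlim7 was lost without PC61 replicate 1 or 3 or PBS replicate 2, 4 or 5 (0.0503 to 0.0581), and Fhl1 without PC61 replicate 3 or 4 or PBS replicate 2, 4 or 5 (0.0501 to 0.0820). With an offset of 50, Mrvi1, Synm and Cald1, all dim, had differences of 0.51, 0.76 and 0.51. The count of 8 was 5 without PBS replicate 4 and 5 without PBS replicate 5. In those fits 1259 and 1072 of all probes were higher, beside 2167 with all arrays. Mylk, the kinase that phosphorylates the myosin light chain, had a log2 difference of -0.66 and did not pass (adjusted p 0.117), except with array weights, where it was -0.79 (0.0217). The actin-bundling and filament genes Flna, Actn1 and Vcl, made by most cells, had differences of 0.38, 0.24 and 0.15 and did not pass. Flna passed in 1 of its 19 alternatives, with an adjusted p of 0.0469 in limma.

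In the list of ligands, receptors and transcription factors, 23 of 34 genes were measured, 10 were higher in PC61 and 1 was lower, with a median difference of 0.74. The shares over all probes were 10.7% higher and 9.28% lower. The 10 include Pdgfrb, counted in the pericyte list too, and Tek, counted among the blood endothelium markers too, so the lists overlap. Of the Notch pathway, Notch1, a receptor of endothelium, keratinocytes and lymphocytes, was 3.05-fold higher, at 9.43, 9.06, 9.40 and 10.19 on PC61 arrays 1 to 4 and 8.32, 7.71, 8.28, 7.25 and 8.01 on PBS arrays 1 to 5, with an adjusted p of 0.0128 in limma. Hes1, a target of Notch in many cells, differed by 1.45 (adjusted p 0.0149), whereas Hey1, a target in vessels, had a difference of -0.27 and did not pass (adjusted p 0.430). The Hes1 call was lost without PC61 replicate 3 (0.0515). The ligand genes Jag1 and Dll4 and the targets Hey2 and Heyl were not among the named detected probes.

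Of the growth factor genes, Tgfbr2, a receptor of TGF beta, differed by 0.92 (adjusted p 0.0203, and 0.0629 without PC61 replicate 3). The ligands Tgfb1, Tgfb2 and Tgfb3 had differences of -0.27, 0.22 and 0.27, and Pdgfb, the ligand of Pdgfrb, had 0.29. None of these 4 passed the test. Angpt2, which angiogenic endothelium releases and which loosens mural cells from vessels, was the 1 gene of the list that fell. It read 8.22, 8.90, 8.16 and 6.84 on PC61 arrays 1 to 4 and 9.03, 9.82, 8.71, 9.41 and 9.62 on PBS arrays 1 to 5, with PC61 replicate 2 above PBS replicate 3. The log2 difference was -1.28 ± 0.37 (SE) with an adjusted p of 0.0334 in limma. It was -0.89 without PC61 replicate 4, and the call was lost when any 1 of 6 arrays was left out (PC61 replicates 1, 3 and 4, PBS replicates 2, 4 and 5), with adjusted p from 0.0524 to 0.0787. Ednrb, an endothelin receptor of endothelium and melanocytes, differed by 1.13 (adjusted p 0.0449). That call was lost in 8 of the 9 fits with 1 array left out (0.0530 to 0.101), all but that without PC61 replicate 2, and with an offset of 50 (0.0528). The Ednrb difference was 0.75 without PC61 replicate 4 and 0.72 with array weights. Cxcl12, a chemokine of stromal cells, differed by 1.37 (adjusted p 0.0144).

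Of the transcription factors, Klf4, which restrains the contractile genes in smooth muscle and is abundant in keratinocytes, was 3.39-fold higher (adjusted p 0.0272). Foxc1, a factor of mural cell development, differed by 1.04 (0.0161). Fhl2, a cofactor of serum response factor, differed by 1.27 (0.0221). Without PC61 replicate 3 the calls of Klf4, Foxc1 and Fhl2 were all lost (adjusted p 0.0838, 0.0509 and 0.0540). Klf4 was also lost without PC61 replicate 4 (0.0507) or PBS replicate 5 (0.0534), and Fhl2 without PC61 replicate 1 (0.0516) or PBS replicate 5 (0.0553). Srf itself, the serum response factor, had a difference of 0.05, whose sign differed between settings, with an adjusted p of 0.878 in limma. Myocd, its partner myocardin, was not among the named detected probes. Leaving out PC61 replicate 3 lowered the counts of higher genes to 3 in the pericyte list, 3 in the contractile list and 2 in this list. Without PC61 replicate 4 they were 5, 8 and 7, and without PBS replicate 5 the last was 6. Over all probes 2167 were higher with all arrays, 617 without PC61 replicate 3, 1551 without PC61 replicate 4 and 1072 without PBS replicate 5.

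**Figure D4:**
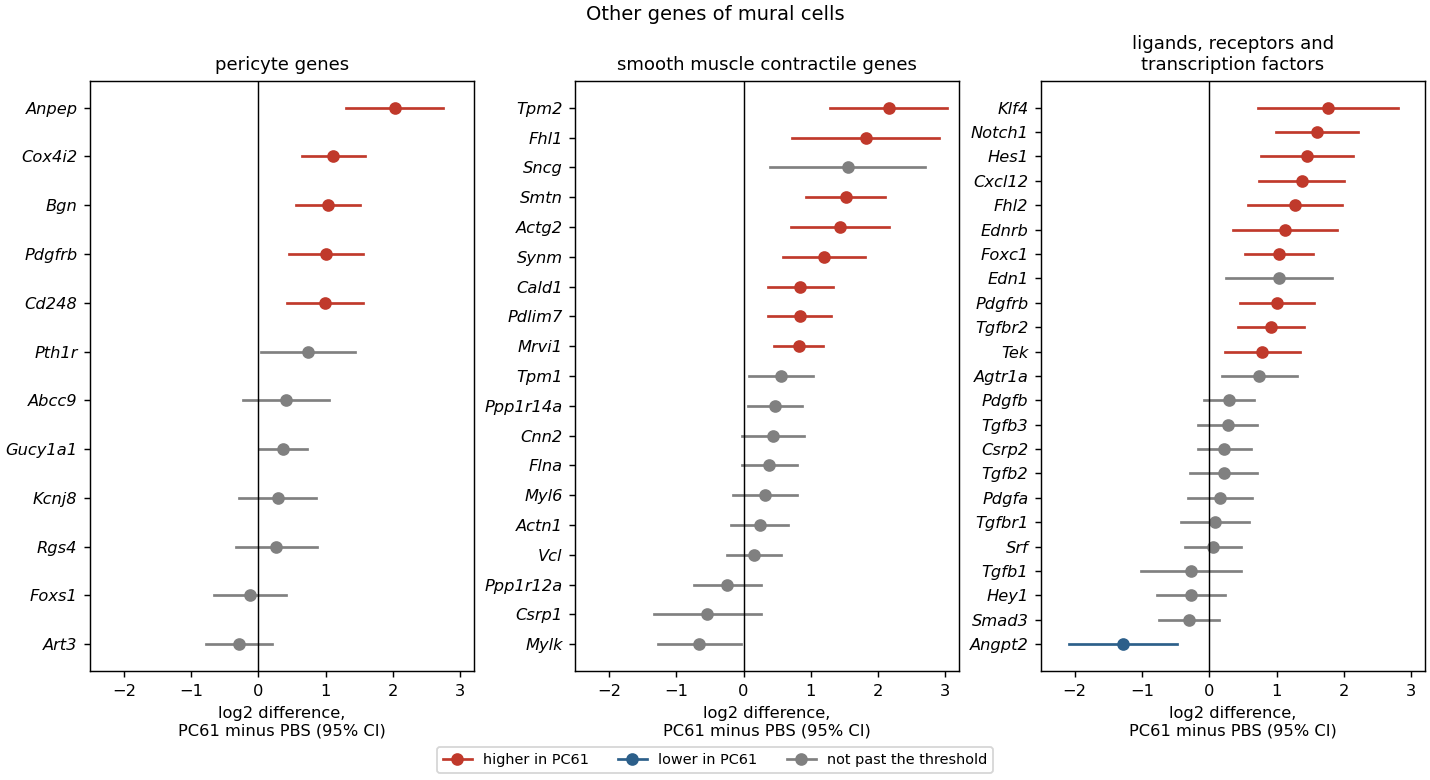
Log2 difference of PC61 minus PBS with its 95% confidence interval (horizontal axes) for each measured gene of the 3 lists, in red where higher in PC61 at an adjusted p under 0.05, in blue where lower and in grey otherwise. Angpt2 is the 1 gene in blue, and Anpep, Tpm2 and Klf4 have the highest difference of their lists.

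Markers of other tissues moved in these samples too. Beside the counts of these marker lists, 10.7% of all probes were higher in PC61 and 9.28% were lower. Of the skeletal muscle list, 21 of 22 genes were measured, 19 were higher in PC61 and 0 were lower, with a median difference of 2.03. The groups did not overlap in its summed intensity. Its brightest genes, Acta1 (skeletal alpha actin), Myl1 (a myosin light chain) and Atp2a1 (the calcium pump), were 3.98-, 3.10- and 3.85-fold higher, each with an adjusted p of 0.0128 in limma. PC61 replicate 4 held the highest skeletal muscle sum as it did for Des, and PC61 replicate 2 the lowest of its group for both. The part of skeletal muscle in the values of Des, and in those of Tpm2, Fhl1, Synm and Pdlim7, was not tested.

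Of 18 fibroblast and matrix genes, all measured, 4 were higher in PC61 and 0 were lower, with a median of 0.87. Their sum ran from 27672 to 53703 in PC61 and from 12358 to 27854 in PBS, and the groups overlapped. Of its brightest genes, Dcn, Col1a1 and Thy1, the log2 differences were 0.96, 1.10 and 0.78, of which Col1a1 and Thy1 passed, and not without PC61 replicate 3 (adjusted p 0.0760 and 0.0838) among other arrays. Of the keratinocyte list, 9 of 12 were measured and 7 were higher, with a median of 1.99 and sums from 57501 to 138445 in PC61 and from 16248 to 60785 in PBS. Its brightest genes, Krt14, Krt10 and Lor, differed by 1.14, 1.05 and 1.11, of which Krt14 and Krt10 passed, and lost their calls when any of 6 and 7 arrays was left out. Of the adipocyte list, 5 of 8 were measured and 1, Lep, was higher, with a median of 1.57 and sums from 3759 to 8099 in PC61 and from 744 to 5960 in PBS. Lep differed by 1.68 (adjusted p 0.0238, and 0.0766 without PC61 replicate 3), while the brighter Adipoq and Cidec, at 1.61 and 1.57, did not pass with all arrays. The part of these tissues in the mural cell values was not tested.

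The endothelium lines the vessels on which mural cells sit. Of 15 blood endothelium genes, 13 were measured, with a median difference of -0.03 and sums from 3755 to 6328 in PC61 and from 4894 to 7088 in PBS. Tek, the angiopoietin receptor, was higher by 0.79 (adjusted p 0.0497), and Emcn, the venous and capillary mucin endomucin, was lower at a log2 difference of -0.68 (0.0490). The same Tek probe was counted in the list of ligands, receptors and transcription factors. Both were singled out after their values had been seen. The Tek call was lost in 8 and the Emcn call in 7 of the 9 fits with 1 array left out, with adjusted p up to 0.137 and 0.115, and both were lost with 75th percentile scaling. The 3 brightest genes of the list, Eng, Egfl7 and Plvap, had differences of -1.25, -0.36 and -0.23 and did not pass. PC61 replicate 4 was far the lowest array for Eng, at 7.58 against 9.29 to 10.60 on the other PC61 arrays, and without it the differences of the 3 genes were -0.63, -0.22 and -0.36. Eng passed without PC61 replicate 2, at -1.64 (adjusted p 0.0275). A difference between the mural and the endothelial genes was not itself tested.

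Of the melanocyte and melanoma list, 14 of 15 genes were measured, 0 were higher and 3 were lower, with a median of -1.85. The brightest genes, Dct, Tyrp1 and Pmel, had differences of -0.89, -2.22 and -1.82 and did not pass (adjusted p 0.295, 0.0804 and 0.114). Without PC61 replicate 4 they were -0.08, -1.04 and -0.75, of which Tyrp1 passed (0.0356). The 3 genes that were lower were Mitf, Tyr and Mc1r, named after their values had been seen, and all 3 calls were lost without PC61 replicate 3 (adjusted p 0.0560, 0.0515 and 0.0680). Their detection was less complete than that of the other lists, with 10 of the 14 genes above background on every array. The rest, Tyr, Mc1r, Pax3 and Slc45a2, were detected on 5 of 5 PBS and 3 of 4 PC61 arrays. Each of them was lowest on PC61 replicate 4, at 4.60, 4.52, 4.29 and 4.69. The sum of the list was 58025, 85002, 45926 and 4486 on PC61 arrays 1 to 4 and from 75246 to 113920 over the PBS arrays. PC61 replicate 4 also had the lowest mean correlation with its own group, 0.914 over all detected probes, where the others ran from 0.936 to 0.974. Without it, 4 of the 8 mural cell genes were higher, Des being lost, and the median of the melanocyte list was -1.0. Of all probes, 1551 were higher without it, beside 2167 with all arrays. The part of melanoma RNA in the values of Mcam and Cspg4 was not tested.

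**Figure D5:**
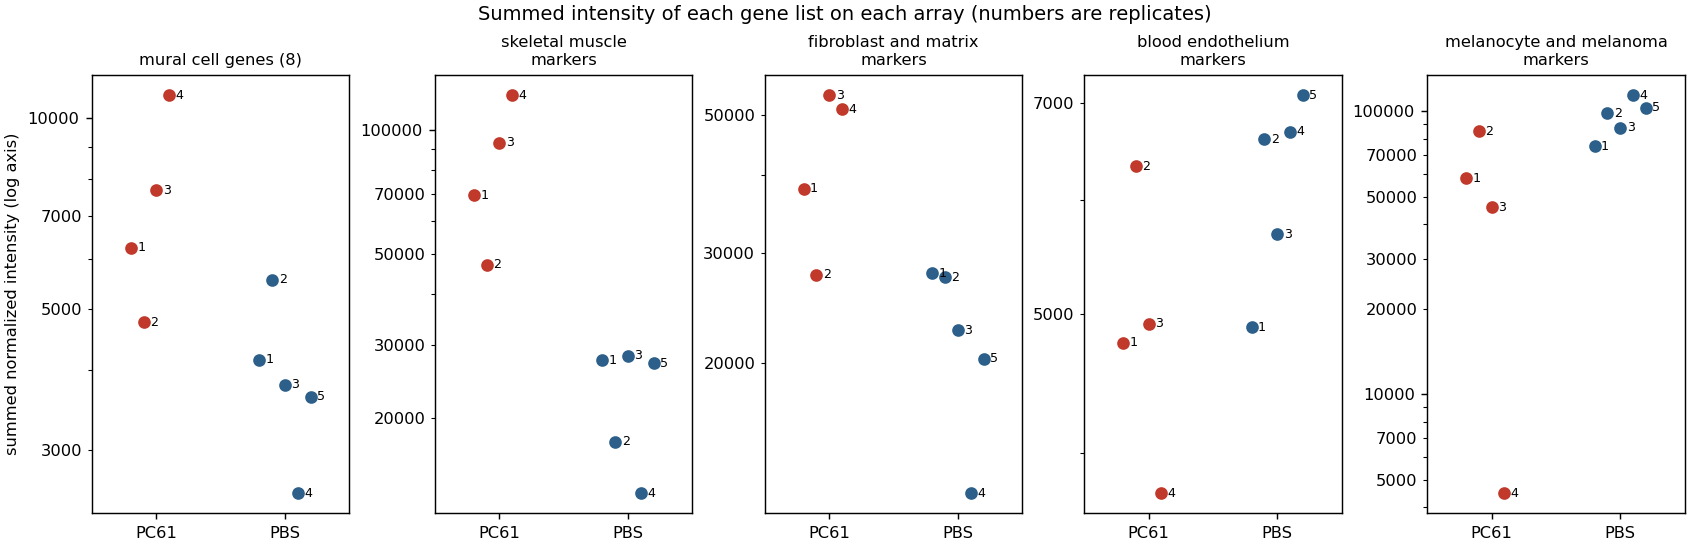
Summed normalized intensity of the measured genes of 5 lists (vertical axes, log scale) on each array, PC61 in red and PBS in blue, numbered by replicate. By these sums, PC61 replicate 4 was the highest array for the 8 mural cell genes and for skeletal muscle, and the lowest for endothelium and melanocytes. The endothelium sum there depends on Eng, the brightest gene of that list. Its log2 value was 7.58 on that array, against 9.29 to 10.60 on the other PC61 arrays.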

How the data were processed

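RNA of 9 tumour samples, 4 PC61 and 5 PBS, was measured on single-colour Illumina arrays from biotin-labelled cRNA, per the labels' protocols. The authors deposited an unnormalized intensity of 45273 probes, each with its detection p-value, per the file headers. A second deposited table held quantile-normalized intensities of 17382 probes with the authors' ratio, test statistic (a score), p-value and Benjamini-Hochberg value. No source used here names the scanner, its software, the slide of each array or the authors' test.

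From the unnormalized table, 3 probes with a detection p outside 0 to 1 were dropped. Normexp background correction, an offset of 16 and quantile normalization (neqc, limma 3.58.1, R 4.3.3) gave log2 values, which hide any shift shared by most genes. The 20190 probes detected at p under 0.05 on 4 or more arrays were fitted with lmFit and eBayes, PC61 minus PBS, with no covariate, adjusted by Benjamini-Hochberg over all of them. Arrays detected from 18572 to 20742 probes, and their number limits the precision. A gene with several probes was counted by the one with the highest mean. The platform annotation named 14906 detected probes with 1 gene and left 5284 unnamed here. It covers the authors' table alone, which is itself limited to detected probes, so a gene may have been named only through its higher group. Folds are 2 to the power of log2 differences after the offset.

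The genes, lists and tests were chosen with earlier results of these data known. Named genes were all members, up to 10 called genes of each mural cell list by p-value, and the 3 brightest of each marker list. Other genes named were picked after their values were seen. Alternatives changed the background correction, normalization, filter, probes per gene, array weights, replicate block and the arrays included. The procedure was tested on simulated data. Sequences came from RefSeq on GRCm38.p6, and no probe coordinates are given because no build is named for the arrays.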

Additional observations from a re-analysis of the deposited data

How the results depend on the processing

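All 13 probes of the 8 genes kept the sign of their difference under each of the 19 alternatives that gave them a value. The count of 5 higher genes became 3 of 6 measured with a detection p under 0.01 on all 9 arrays, 3 with no filter on dim probes, and 2 to 5 when 1 array was left out. The labels do not say whether the replicate numbers shared by the groups pair the samples. Same-numbered arrays had correlations of their deviations from the group means between -0.29 and 0.04. These were not set against differently numbered arrays, so they cannot decide it. With the replicate block, 0 members and 0 of all probes were called, as were 0 pericyte, 0 contractile and 0 ligand, receptor and transcription factor genes, although 5 members and 5357 probes had an unadjusted p under 0.05. In that limma fit the adjusted p was 0.109 for Notch3, Myl9 and Des, 0.115 for Tagln and 0.126 for Myh11. Over all probes, 4041 were called, and 1796 with no filter, 2679 with 1 probe per named gene, 6279 with array weights and 972 to 5757 when 1 array was left out. With the stricter detection rule, 2803 of 13175 probes were called. The pericyte count of 5 became 3 with no filter and 3 to 6 with 1 array left out. The contractile count of 8 became 5 with the stricter detection rule and 3 to 9 with 1 array left out. The count of 10 ligand, receptor and transcription factor genes became 5 with no filter and 2 to 11 with 1 array left out. Among other named genes, the sign turned for Tgfb1 at 0.14 with array weights, and its difference ran from -0.46 to 0.071 with 1 array left out. It turned for Srf at -0.0069 with 75th percentile scaling, -0.13 with array weights and -0.013 with the replicate block, with -0.047 to 0.15 when 1 array was left out, and neither gene passed in these fits. No members were lower, with a count of 0 throughout. The cause of these shifts was not tested, except that no filter adds probes to the adjustment and that the stricter rule leaves out genes. The replicate block also fits a level for each replicate number, which leaves less data to estimate the spread. PBS replicate 5 has no partner in that block, so the block differences were those without it, 1.55 for Notch3 and 1.36 for Myl9. A fit with the slide as a block was not run, because the headers give no slide.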
